A study of Homo sapiens with 6 samples.

Results

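TFIID and Mediator are the large complexes that stand between gene-specific transcription factors and RNA polymerase II. Their subunit genes were followed here in MDA-MB-231 cells, an invasive triple-negative breast cancer line, with and without knockdown of ATAD3A, an ATPase of the inner mitochondrial membrane. The set holds every protein-coding gene whose symbol is TAF or MED followed by a number, plus TBP, TBPL1, CDK8, CDK19 and CCNC, which came to 56 of the 19775 genes measured. Members were chosen by symbol. Measured values entered only in the choice of probe set, selected on the mean of all 6 arrays (the highest for each gene), so the mean levels below are a description and carry no test. TAF9 was measured only by a probe set that it shares with AK6, and MED6 and MED25 were not analysed here. The pseudogene MED15P9 and the noncoding genes MED14OS and TAF1A-AS1 were left out.

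Knockdown cells (shATAD3A) had been infected with a pLKO.1 lentiviral vector carrying a hairpin against ATAD3A, and control cells (shGFP) with the same vector carrying a hairpin against GFP. All cells were grown in RPMI 1640 with 10% serum, kept under puromycin (1.0 µg/ml) for 2 weeks, and taken at passage 2. Each group gave 3 Affymetrix U133 Plus 2.0 arrays, and the comparison asks which transcripts differ between the group means. The number of hairpins used, and whether the resistant cells were a pool or a clone, is not given in the sources used here. The labels also leave unsaid if the 3 replicates of a group came from different cultures. The p-values therefore speak only to array-to-array spread, possibly technical.

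TFIID is built from TBP, which binds the TATA element, and a shell of TBP-associated factors (TAFs), several of which pair through histone folds and several of which read core promoter DNA or histone marks. Mediator is divided into a head and a middle that contact the polymerase, a tail that receives activators, and a detachable kinase module of CDK8 or CDK19 with cyclin C, MED12 and MED13. Several TAFs and Mediator subunits have paralogs that can take their place, and some TAFs also serve the SAGA coactivator or, in the SL1 factor, RNA polymerase I.

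All values are log2 expression values, and every change is shATAD3A minus shGFP on that scale, with its SE from limma and a p adjusted over all genes. A gene is said to have risen or fallen where that adjusted p was under 0.05. ATAD3A itself read 7.41, 7.03 and 7.39 in shATAD3A arrays, against 7.73, 7.78 and 7.80 in shGFP arrays, a change of -0.49 ± 0.105 (SE; limma adjusted p = 0.0129). These values come from an x_at probe set, a type that may cross-hybridise. Values formed a low mode, below about 4.77, where probe sets hold little signal, and a broad upper range. VIM, CD44, AXL, CAV1 and MSN, which mark the mesenchymal state of this line, all lay above the low mode, with a summed log2 value of 70.8 to 71.0 in shATAD3A arrays and 72.1 to 72.2 in shGFP arrays. MSN (-0.45), CD44 (-0.34), AXL (-0.26) and CAV1 (-0.25) were called as fallen, while VIM was not called (0.019, limma adjusted p = 0.879). Of 3 luminal receptor genes ESR1 and PGR lay in the low mode, while ERBB2 lay above it and rose by 0.51 (limma adjusted p = 0.00251). Their summed log2 value was 14.4 to 14.5 in shATAD3A arrays and 13.8 to 13.9 in shGFP arrays. Of 4 measured leukocyte markers 0 lay above it (summed log2 values of 10.2 to 10.5 in shATAD3A arrays, 11.6 to 12.3 in shGFP arrays, where CD14 was higher), and of 5 fibroblast markers 1 did, COL1A1 (22.1 to 22.7 in shATAD3A arrays, 20.5 to 21.0 in shGFP arrays). The actin 3′ minus 5′ control signal, a sign of RNA quality, was 3.03 to 3.20 in shATAD3A arrays and 3.14 to 3.28 in shGFP arrays. The part of these differences in the results below was not tested.

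Of the 56 subunit genes, 35 changed (62.5%), 15 upward and 20 downward, and the 2 groups of arrays did not overlap for 37. Over all genes 33.6% changed, 19.7% upward and 13.9% downward, and 42% did not overlap. The subunit genes are mostly expressed, 50 of them above the low mode, and among the 10202 genes above the low mode 61.9% changed, 36.5% upward and 25.4% downward, with 71.9% not overlapping. Set beside expressed genes, 35 of 50 (70.0%) changed, a share not far above the background, with 15 (30.0%) upward and 20 (40.0%) downward. The median change was -0.0048 over all members and -0.00084 over all genes, many of which lie in the low mode. Above the low mode it was -0.022 over members and 0.065 over all genes. Most changes were modest: 11 of the 35 reached 1.5-fold and 3, TAF9B, TAF4B and MED12, reached 2-fold. Of the 25 TBP and TAF genes measured, 22 of them above the low mode, 4 rose (16.0%) and 12 fell (48.0%), with a median of -0.19. Of the 31 Mediator genes, 28 of them above it, 11 rose (35.5%) and 8 fell (25.8%), with a median of 0.058. The Mediator values lay near those of genes above the low mode (36.5%, 25.4% and a median of 0.065). The difference between the complexes was not tested.

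**Figure D1:**
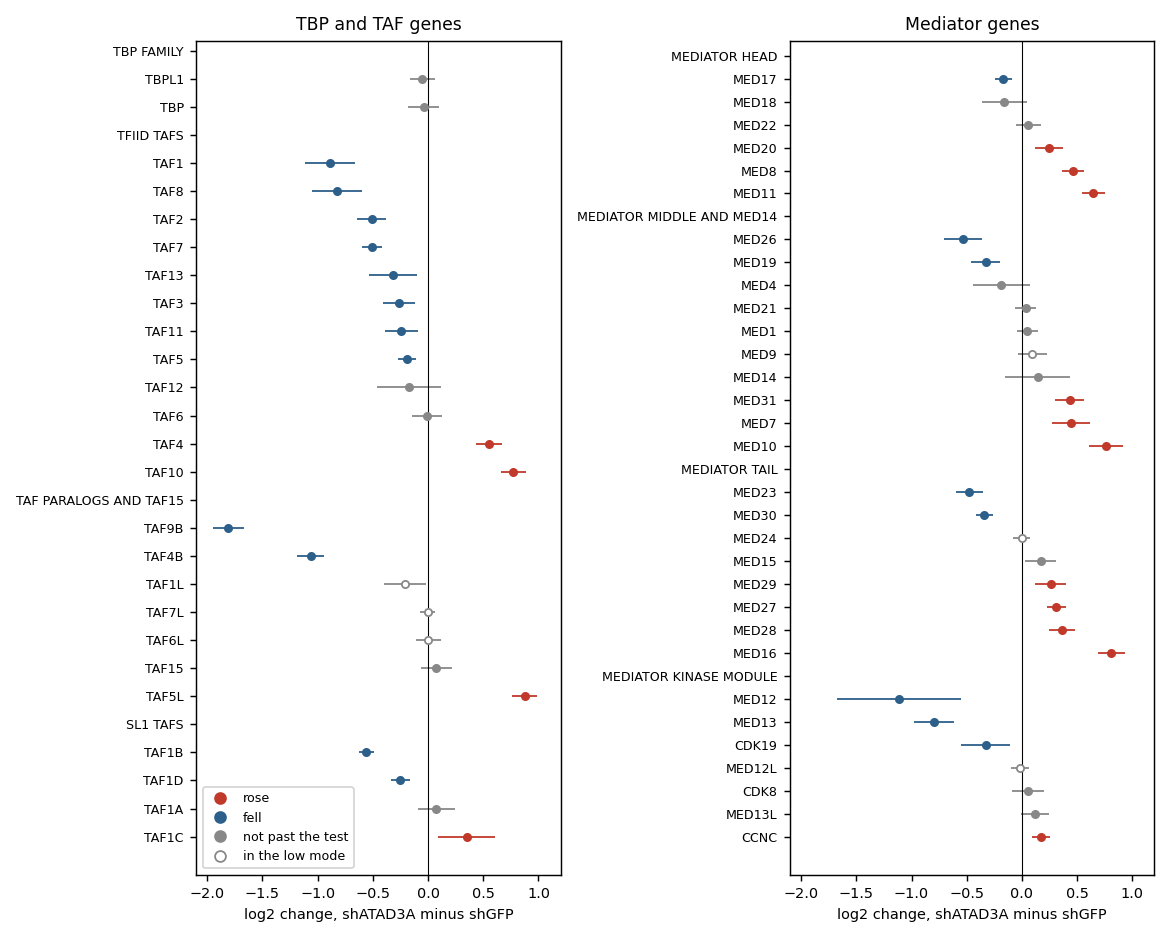
Log2 change (shATAD3A minus shGFP, horizontal axis) of each of the 56 subunit genes with its 95% confidence interval from limma, by role. Red points rose, blue points fell, grey points did not pass the test and open points lay in the low mode. Of 25 TBP and TAF genes, 22 of them above the low mode, 12 fell (48.0% of the 25, where 25.4% of genes above the low mode did). Of 24 genes of the Mediator head, middle and tail, 22 of them above it, 10 rose (41.7% of the 24, where 36.5% did).

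TBP, the DNA-binding centre of TFIID, showed no change that passed the test. It read 8.62, 8.77 and 8.65 in shATAD3A arrays, against 8.82, 8.67 and 8.68 in shGFP arrays. The ranges overlapped, and the change of -0.039 (limma adjusted p = 0.771) had a 95% interval of -0.18 to 0.10. Its relative TBPL1, which serves TATA-less promoters, changed by -0.051 (limma adjusted p = 0.577; interval -0.17 to 0.066).

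Of the 12 TFIID TAFs measured, all above the low mode, 8 fell (66.7%), 2 rose (16.7%) and 2 did not pass the test. Of genes above the low mode 25.4% fell and 36.5% rose. The median change was -0.25 where the median over expressed genes was 0.065. TAF1, the largest subunit, whose bromodomains bind acetylated histones, read 9.32, 9.12 and 8.97 in shATAD3A arrays, against 9.96, 10.11 and 10.00 in shGFP arrays. Every knockdown array lay below every control array, and the gene fell by 46.0%, a change of -0.89 ± 0.094 (SE; limma adjusted p = 0.00064). TAF7, which binds TAF1 and restrains its acetyltransferase activity, read 11.82, 11.87 and 11.93 in shATAD3A arrays, against 12.35, 12.40 and 12.39 in shGFP arrays. Its groups were clearly separate and it fell by 29.7% (limma adjusted p = 0.000159). TAF8, a histone-fold partner of TAF10, read 7.61, 7.91 and 7.84 in shATAD3A arrays, against 8.60, 8.52 and 8.71 in shGFP arrays. Its groups stood well apart, with a change of -0.82 ± 0.092 (SE; limma adjusted p = 0.00079), and its other probe sets above the low mode changed by -0.83 and -0.81. TAF2, which contacts the Initiator element, averaged 11.1 ± 0.072 in shATAD3A arrays and 11.6 ± 0.075 in shGFP arrays (SD, n = 3 each), and changed by -0.51 (limma adjusted p = 0.000677).

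The remaining falls among the TFIID TAFs were small. TAF3, whose PHD finger reads methylated histone H3, changed by -0.26 (limma adjusted p = 0.0164). A second TAF3 probe set, also above that mode, changed by 0.0037 (limma adjusted p over probe sets = 0.989), and the TAF3 call was lost without shGFP replicate 2 (adjusted p = 0.0577) or 3 (adjusted p = 0.0548). The histone-fold partners TAF11 and TAF13 changed by -0.24 and -0.32, TAF13 missing the threshold when p was adjusted over all probe sets (0.0549). Both calls were lost without any of 4 single arrays. For TAF11 the adjusted p was 0.0757 without shATAD3A replicate 2, 0.0831 without 3, 0.0779 without shGFP replicate 2 and 0.078 without 3. For TAF13 it was 0.0666, 0.088, 0.102 and 0.11 without the same arrays. TAF5, a scaffold with WD40 repeats, read 9.88, 9.92 and 9.88 in shATAD3A arrays, against 10.13, 10.06 and 10.07 in shGFP arrays, and changed by -0.19 (limma adjusted p = 0.00444). This was the smallest change among the called TFIID TAFs, and its groups still did not overlap. TAF6 changed by -0.0056 (limma adjusted p = 0.976; interval -0.14 to 0.13). TAF12 changed by -0.17 (limma adjusted p = 0.392; interval -0.46 to 0.12), with 1 knockdown array at 5.51 and the other two at 5.88 and 5.97.

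Against this direction, TAF10 and TAF4 rose. TAF10, a histone-fold subunit shared by TFIID and SAGA, read 11.72, 11.84 and 11.84 in shATAD3A arrays, against 11.07, 10.98 and 11.03 in shGFP arrays. All knockdown arrays were higher, by 70.9% on average, a change of 0.77 ± 0.046 (SE; limma adjusted p = 6.211e-05). TAF4, the partner of TAF12 and a contact point for activators, read 10.07, 10.10 and 10.12 in shATAD3A arrays, against 9.57, 9.62 and 9.45 in shGFP arrays. Its groups did not overlap, and the change was 0.55 ± 0.049 (SE; limma adjusted p = 0.00032). The TAF9 probe set shared with AK6, which cannot be assigned to one of these genes, changed by -0.13 (limma adjusted p over probe sets = 0.0376).

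On the probe sets used, the largest change of the whole set was in a paralog of a TFIID TAF. TAF9B, a close relative of TAF9, read 8.18, 8.27 and 8.38 in shATAD3A arrays, against 10.03, 10.12 and 10.11 in shGFP arrays. The gap between the groups was many times the spread within them, and TAF9B fell by 71.5%, a change of -1.81 ± 0.058 (SE; limma adjusted p = 6.978e-06). That size belongs to its brightest probe set: the others above the low mode changed by -0.99, -0.42 and -0.055, the last not called. TAF4B, a paralog of TAF4 known for its role in mouse germ cells, read 6.93, 6.95 and 7.06 in shATAD3A arrays, against 8.10, 8.04 and 7.98 in shGFP arrays. It fell by 52.1%, a change of -1.06 ± 0.050 (SE; limma adjusted p = 2.795e-05), while TAF4 rose. TAF5L, which takes the place of TAF5 in SAGA, read 9.81, 9.92 and 9.92 in shATAD3A arrays, against 9.07, 8.96 and 8.98 in shGFP arrays. It rose by 0.87 ± 0.047 (SE; limma adjusted p = 4.59e-05), where TAF5 fell, but a second TAF5L probe set above the low mode changed by 0.023 (limma adjusted p over probe sets = 0.749).

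Among the other members of this group, TAF15, an RNA-binding protein of the FET family, changed by 0.076 (limma adjusted p = 0.447). Another TAF15 probe set changed by -0.47 (limma adjusted p over probe sets = 0.00341), so the probe sets of that gene disagree. TAF1L, TAF7L and TAF6L lay in the low mode in every array, between 2.24 and 3.64. TAF1L, a retrocopy of TAF1, changed by -0.21 and did not pass the test (limma adjusted p = 0.0945).

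Paralog pairs were compared by the difference between their changes. The change of TAF4B minus that of TAF4 was -1.61, and that of TAF5L minus TAF5 was 1.07. For MED13L minus MED13 the difference was 0.92, and for CDK19 minus CDK8 it was -0.38. In each of these 4 pairs the per-array difference between the paralogs did not overlap between the groups. Of single genes above the low mode 71.9% did not overlap, and the share over other gene pairs was not taken. The differences use the brightest probe set of each gene, and the probe sets of TAF5L and of MED13L disagree. With 3 arrays against 3 an exact two-sided permutation test cannot go below 0.1, which each of these pairs reached (0.129 adjusted over the 9 pairs compared). TBPL1 minus TBP gave -0.012 (exact permutation p = 0.8). In the remaining 4 pairs the paralog (TAF1L, TAF6L, TAF7L or MED12L) lay in the low mode. The differences with TAF1L, TAF7L and MED12L did not overlap between the groups either.

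**Figure D2:**
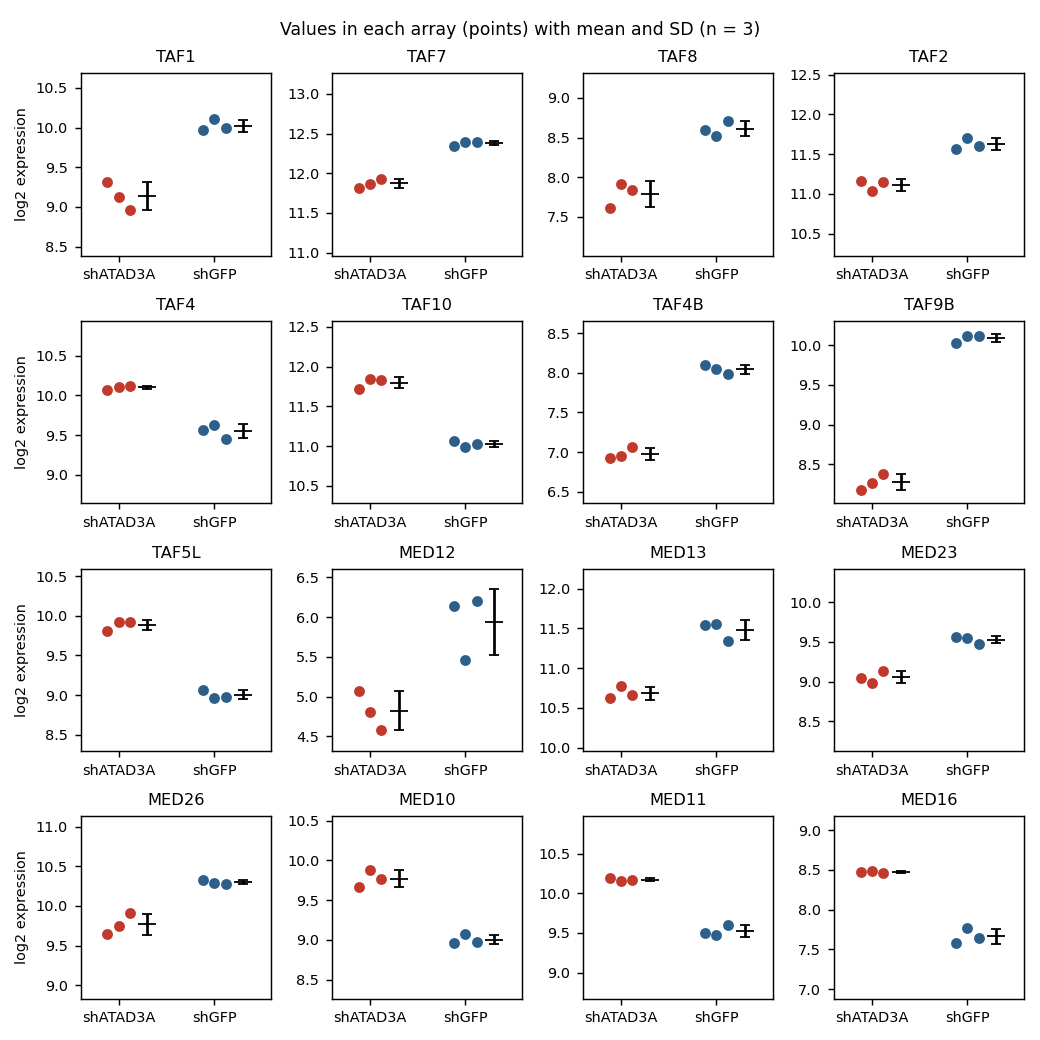
Log2 expression values (vertical axis) in the 3 shATAD3A arrays (red) and the 3 shGFP arrays (blue) for 16 subunit genes, with the mean and SD of each group in black. The panels span equal ranges of log2 units around each gene's own level. All 16 are changed members whose groups do not overlap, so the separation seen in the panels is no further result. Of genes above the low mode 71.9% did not overlap. TAF4, TAF10, TAF5L, MED10, MED11 and MED16 are higher in shATAD3A arrays and the other panels lower, with the widest gap in TAF9B.

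The promoters of 6 of these genes are shown because they include paralogs that moved in opposite directions (TAF4B against TAF4), the largest fall and rise among the paralogs (TAF9B and TAF5L), and the TFIID TAFs with the largest fall (TAF1) and rise (TAF10). Each runs from 250 bases before to 50 after the annotated start in RefSeq, build GRCh38.p14, on the strand of the gene, and capitals mark matches to the motifs named after the sequences. They lie at chrX:78139601-78139900 (minus strand, TAF9B), chr18:26226195-26226494 (plus strand, TAF4B), chr20:62065832-62066131 (minus strand, TAF4), chr1:229626073-229626372 (minus strand, TAF5L), chrX:71366107-71366406 (plus strand, TAF1) and chr11:6612167-6612466 (minus strand, TAF10).
TAF9B: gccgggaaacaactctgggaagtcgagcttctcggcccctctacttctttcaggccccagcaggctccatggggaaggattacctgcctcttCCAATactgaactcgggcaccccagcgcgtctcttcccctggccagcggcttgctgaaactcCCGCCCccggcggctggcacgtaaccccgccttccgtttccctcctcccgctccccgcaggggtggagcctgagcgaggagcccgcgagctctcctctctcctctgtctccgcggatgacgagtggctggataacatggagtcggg
TAF4B: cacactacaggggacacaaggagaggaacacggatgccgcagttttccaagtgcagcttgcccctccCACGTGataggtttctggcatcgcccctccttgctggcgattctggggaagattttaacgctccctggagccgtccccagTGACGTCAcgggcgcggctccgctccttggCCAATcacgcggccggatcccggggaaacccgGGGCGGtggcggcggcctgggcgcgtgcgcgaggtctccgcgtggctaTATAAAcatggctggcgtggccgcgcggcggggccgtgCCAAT
TAF4: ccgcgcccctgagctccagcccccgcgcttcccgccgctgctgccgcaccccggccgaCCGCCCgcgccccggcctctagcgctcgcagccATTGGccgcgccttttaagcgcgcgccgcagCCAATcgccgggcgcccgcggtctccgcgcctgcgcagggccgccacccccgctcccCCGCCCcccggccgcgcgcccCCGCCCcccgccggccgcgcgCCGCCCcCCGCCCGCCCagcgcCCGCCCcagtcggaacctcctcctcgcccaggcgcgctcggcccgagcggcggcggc
TAF5L: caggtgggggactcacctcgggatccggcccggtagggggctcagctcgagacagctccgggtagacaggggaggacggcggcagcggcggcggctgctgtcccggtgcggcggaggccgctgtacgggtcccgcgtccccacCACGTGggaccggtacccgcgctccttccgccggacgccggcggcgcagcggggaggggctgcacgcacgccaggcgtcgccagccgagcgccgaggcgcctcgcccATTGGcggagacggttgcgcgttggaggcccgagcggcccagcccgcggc
TAF1: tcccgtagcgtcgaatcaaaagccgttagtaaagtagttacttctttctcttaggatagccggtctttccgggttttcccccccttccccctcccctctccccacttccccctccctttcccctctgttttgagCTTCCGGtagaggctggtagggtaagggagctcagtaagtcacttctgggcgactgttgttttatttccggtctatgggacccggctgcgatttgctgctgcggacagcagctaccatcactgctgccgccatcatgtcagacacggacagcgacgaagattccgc
TAF10: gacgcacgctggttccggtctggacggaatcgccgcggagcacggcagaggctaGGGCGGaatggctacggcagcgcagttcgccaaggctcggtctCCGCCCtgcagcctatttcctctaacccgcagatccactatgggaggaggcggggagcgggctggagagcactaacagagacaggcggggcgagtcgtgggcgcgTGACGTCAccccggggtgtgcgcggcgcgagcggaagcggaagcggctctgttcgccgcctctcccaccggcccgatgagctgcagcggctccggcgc
The motifs searched on both strands were the TATA box TATAAA, the CCAAT box CCAAT, the GC box GGGCGG, the ETS site CCGGAAG, the cAMP response element TGACGTCA, the E-box CACGTG and the NRF1 site. None of these 7 motifs is contained in another. Promoters were found for 45 of the 56 members and not for MED13, MED14, MED21, MED22, MED28, MED30, MED8, TAF15, TAF1L, TAF2 and TAF8. The TAF4B promoter holds 6 matches, among them a cAMP response element at position -103 from the start, an E-box at -183 and a TATAAA at 8. TAF4 holds 7 GC boxes and 2 CCAAT boxes and none of the other motifs. The TAF10 promoter also holds a cAMP response element, at -48, and the TAF1 promoter holds an ETS site. ETS letters were in 33.3% of the members' promoters, 5 of 13 that rose, 6 of 16 that fell and 4 of 16 not called, against 10.7% of all 27305 promoters and 21% of the 8490 promoters of genes above the low mode. GC boxes were in 57.8% of the members' promoters, against 71.4% of those of genes above the low mode and 44.6% of all. TATAAA was in 6.67% (5.29% of promoters of genes above the low mode, 12% of all), CCAAT in 46.7% (37.7% and 35.7%) and CACGTG in 13.3% (10.8% and 7.43%). In the same order of backgrounds, TGACGTCA was in 6.67% (3.39% and 1.98%) and the NRF1 site in 2.22% (2.59% and 1.36%). These matches describe the letters in the window and were not tested against the changes.

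SL1 joins TBP to TAF1A, TAF1B, TAF1C and TAF1D at ribosomal RNA genes. TAF1B read 10.11, 10.08 and 10.14 in shATAD3A arrays, against 10.69, 10.67 and 10.65 in shGFP arrays. These were among the tightest replicates of the set, and TAF1B fell by 32.1%, a change of -0.56 ± 0.028 (SE; limma adjusted p = 3.525e-05), with -0.65 on its other probe set. TAF1D changed by -0.25 (limma adjusted p = 0.00202), and of its 2 probe sets shared with small RNA genes 1 changed by -0.23 and was called. TAF1A changed by 0.073 (limma adjusted p = 0.574). TAF1C changed by 0.35 (limma adjusted p = 0.0471), a call that was lost when p was adjusted over all probe sets (0.0734) and without any of 4 single arrays, shATAD3A replicate 1 (adjusted p = 0.0826) or 2 (adjusted p = 0.077) and shGFP replicate 2 (adjusted p = 0.125) or 3 (adjusted p = 0.14).

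In the Mediator kinase module the large structural subunits fell while the kinase CDK8 did not pass the test. MED13, which ties the module to the core of Mediator, read 10.62, 10.77 and 10.66 in shATAD3A arrays, against 11.55, 11.56 and 11.34 in shGFP arrays. It fell by 42.4%, a change of -0.80 ± 0.074 (SE; limma adjusted p = 0.000371). A second MED13 probe set changed by -0.49 and was called, and another changed by 0.42 and was not (limma adjusted p over probe sets = 0.27). MED12, which activates the kinase, read 5.07, 4.81 and 4.58 in shATAD3A arrays, against 6.14, 5.46 and 6.21 in shGFP arrays. The knockdown arrays reached the edge of the low mode, 1 control array stood well below the other two, and the change of -1.12 ± 0.229 (SE; limma adjusted p = 0.0109) has the widest interval of all members, -1.68 to -0.56. Another MED12 probe set, of the same x_at type that may cross-hybridise, changed by -1.49 (limma adjusted p over probe sets = 0.000181).

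The paralogs of MED13, MED12 and CDK8 gave other values. MED13L read 9.61, 9.55 and 9.49 in shATAD3A arrays, against 9.35, 9.46 and 9.49 in shGFP arrays. The groups met at 9.49, and the change of 0.12 did not pass the test (limma adjusted p = 0.147; interval -0.0062 to 0.25). With all its probe sets averaged MED13L changed by -0.10 and was called (limma adjusted p = 0.0387), so its direction depends on the probe sets used. MED12L lay in the low mode, between 2.37 and 2.45 in all arrays. CDK8, the founding kinase, changed by 0.055 (limma adjusted p = 0.639; interval -0.088 to 0.20). CDK19, its paralog, read 7.61, 7.89 and 7.56 in shATAD3A arrays, against 8.08, 7.98 and 7.99 in shGFP arrays. Its change of -0.33 passed the test (limma adjusted p = 0.0339), but not when p was adjusted over all probe sets (0.0539), nor without shATAD3A replicate 1 (adjusted p = 0.101) or 3 (adjusted p = 0.0957), or shGFP replicate 1 (adjusted p = 0.106), 2 (adjusted p = 0.0703) or 3 (adjusted p = 0.0808). CCNC, the cyclin of both kinases, averaged 12.3 ± 0.027 in shATAD3A arrays and 12.1 ± 0.034 in shGFP arrays (SD, n = 3 each), a small rise of 0.17 (limma adjusted p = 0.0067).

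In the head, which binds the polymerase, 3 of 6 measured genes rose and 1 fell, with a median of 0.15. MED11, part of the fixed base of the head, read 10.19, 10.15 and 10.17 in shATAD3A arrays, against 9.50, 9.47 and 9.60 in shGFP arrays. It rose by 56.5%, a change of 0.65 ± 0.042 (SE; limma adjusted p = 8.939e-05). MED8 rose by 0.46 (limma adjusted p = 0.000293) as its brightest probe set read it, while the other two changed by -0.24 and -0.12 and were not called. MED20, which pairs with MED18 in the movable jaw, changed by 0.24 (limma adjusted p = 0.0121), and MED18 itself by -0.16 (limma adjusted p = 0.239), though another MED18 probe set fell by 0.34 (limma adjusted p over probe sets = 0.00679). MED17, the central scaffold of the head, changed by -0.17 (limma adjusted p = 0.00625). MED22 changed by 0.058 (limma adjusted p = 0.475).

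Of the 10 genes of the middle and the backbone subunit MED14, 3 rose, 2 fell and 5 did not pass. MED10 read 9.66, 9.87 and 9.77 in shATAD3A arrays, against 8.97, 9.07 and 8.97 in shGFP arrays. Its groups were far apart and it rose by 69.9%, a change of 0.76 ± 0.063 (SE; limma adjusted p = 0.000234). MED7, of the hinge it forms with MED21, rose by 0.44 (limma adjusted p = 0.00384), while a second probe set, also above the low mode, changed by 0.20 and was not called (limma adjusted p over probe sets = 0.151). MED31 rose by 0.43 (limma adjusted p = 0.00136), while another MED31 probe set changed by -0.14 and was called in that direction (limma adjusted p over probe sets = 0.0497). MED26, which recruits elongation factors to the polymerase, read 9.64, 9.75 and 9.91 in shATAD3A arrays, against 10.33, 10.29 and 10.28 in shGFP arrays. It fell by 30.9%, a change of -0.53 ± 0.069 (SE; limma adjusted p = 0.00151). MED19 changed by -0.33 (limma adjusted p = 0.00465). MED1, the docking subunit for nuclear receptors, changed by 0.05 (limma adjusted p = 0.463) when read from the brightest probe set, and another of its probe sets rose by 0.29. MED4, MED14 and MED21 did not pass on their brightest probe sets either, although another probe set was called for each (0.29, -0.26 and 0.38). MED9 lay in the low mode.

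In the tail, where many activators bind, 4 of 8 genes rose and 2 fell, with a median of 0.22. MED16 read 8.47, 8.48 and 8.47 in shATAD3A arrays, against 7.58, 7.76 and 7.65 in shGFP arrays. The knockdown arrays were nearly identical and all higher, and MED16 rose by 75.3%, a change of 0.81 ± 0.050 (SE; limma adjusted p = 7.401e-05). Its other probe sets above the low mode changed by 0.60 and 0.45 without passing the test. MED28 rose by 0.36, MED27 by 0.31 and MED29 by 0.26, the last of these no longer called without shATAD3A replicate 3 (adjusted p = 0.0543) or shGFP replicate 3 (adjusted p = 0.0546). MED23, a target of MAP kinase-regulated ELK1, read 9.05, 8.98 and 9.13 in shATAD3A arrays, against 9.56, 9.55 and 9.48 in shGFP arrays. It fell by 28.1%, a change of -0.48 ± 0.048 (SE, limma adjusted p = 0.000542). With all MED23 probe sets averaged, those in the low mode included, the change was -0.18 and the call was lost (limma adjusted p = 0.0962). MED30 changed by -0.34 (limma adjusted p = 0.000344), and by -0.50 on another probe set. MED15, the partner of SREBP, changed by 0.17 and missed the threshold although its groups did not overlap (limma adjusted p = 0.0683). MED24 lay in the low mode on its own probe set, and the brighter one it shares with a microRNA gene changed by -0.034 (limma adjusted p over probe sets = 0.866).

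How far the choice of probe set matters could be seen directly, since the 56 members had 149 probe sets. Of the 35 that changed, 22 had another probe set above the low mode. For 12 of these at least 1 other was called the same way, for 9 none of the others was called, and for 2, MED31 and MED28, another was called in the opposite direction. MED28 had 3 others called upward as well. Among the members that did not change, 7 had another probe set that was called. TAF8, TAF1B, TAF2, TAF5, TAF11, MED12 and MED30, each with more than 1 probe set above the low mode, were called downward by all of those. The second MED12 probe set was above it only on the mean, with every shATAD3A array inside the low mode.

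**Figure D3:**
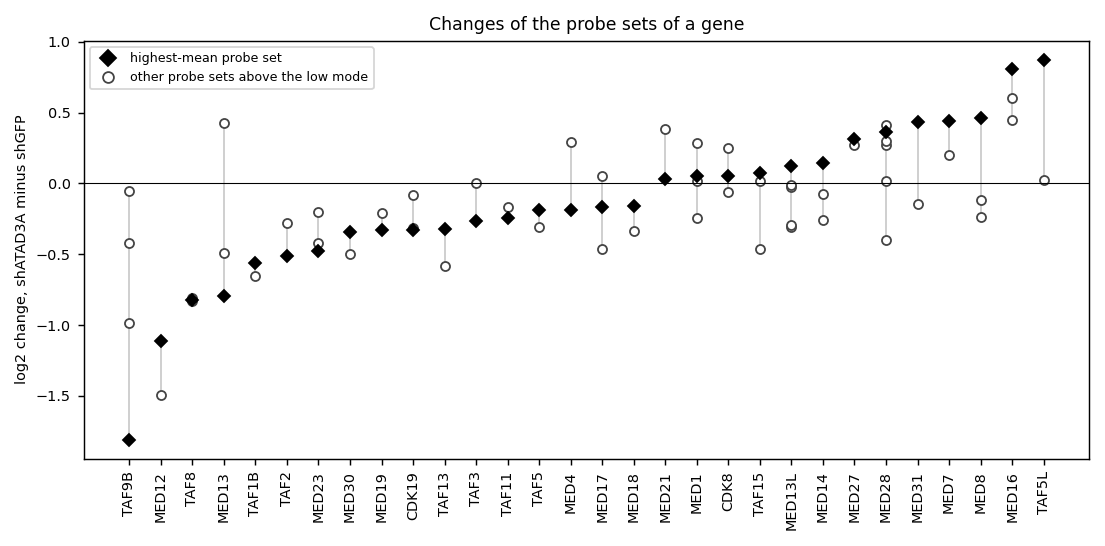
Log2 change (shATAD3A minus shGFP, vertical axis) of each probe set above the low mode for the 30 members with more than 1 such probe set, ordered by the change of the highest-mean one. Filled diamonds are the probe sets used for the gene and open circles the others; the circles of TAF8 lie on its diamond, while those of TAF9B, MED8 and TAF5L lie far from theirs and those of MED28 fall on both sides of 0.

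Neighbouring genes on the same chromosome moved with several members. For each gene the median change of the 25 nearest genes above the low mode on either side was taken, in the gene order of GRCh38.p14. These medians ran from -1.14 to 0.56 over the members. TAF1, MED12 and TAF9B all lie on chromosome X, where the medians around them were -0.77, -0.70 and -0.93. With the median removed, as a fixed value without error, TAF1 changed by -0.12 (limma adjusted p = 0.323) and MED12 by -0.41 (limma adjusted p = 0.163), while TAF9B still changed by -0.88 (limma adjusted p = 7.304e-05). MED26, MED30, MED31, MED27 and TAF1C also lost their calls, and TAF11 turned to 0.19 (limma adjusted p = 0.0345). TAF8, TAF11 and MED20 lie in a stretch of chromosome 6 with medians of -0.43, -0.44 and -0.45, so that MED20 rose among falling neighbours. TAF2 and MED30 share a median of -0.33, and MED26 had one of -0.48. Around MED16, MED10, MED11 and MED31 the medians were 0.54, 0.48, 0.44 and 0.33. In contrast, the medians around MED13 (-0.0098), TAF7 (-0.029), MED23 (-0.0051), TAF4 (-0.039) and TAF10 (0.11) were small beside the changes of those genes. With these medians removed 37 members changed, of which 27 had been called before in the same direction. Over all genes 60.8% changed, against 33.6% before. Both counts take in genes of the low mode, such as TAF7L, which changed by -0.0041 before the removal and by 1.14 after it. Of the 35 changed members, 26 had the same sign as their neighbours. The same share was not taken over all changed genes, so this count does not set the members apart. The part of the neighbourhood in each change was not tested.

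**Figure D4:**
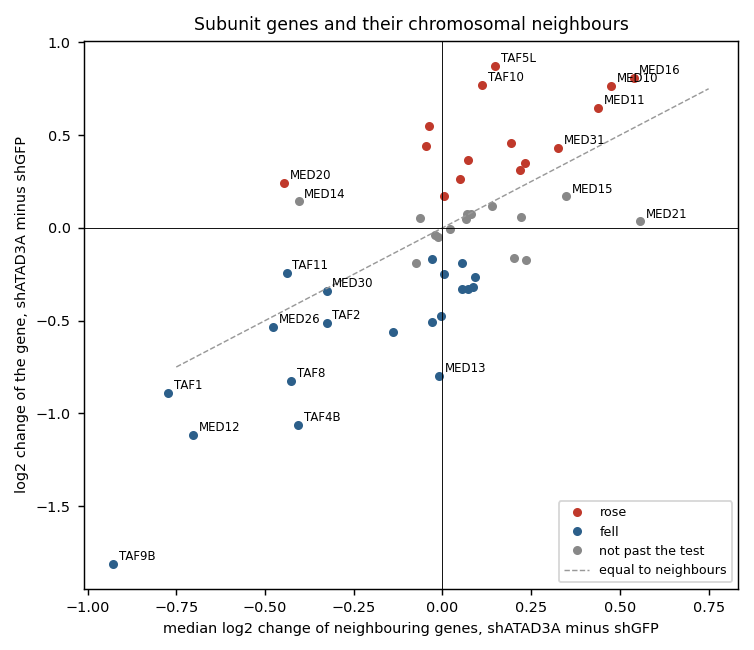
Log2 change of each subunit gene above the low mode (vertical axis) against the median log2 change of its neighbouring genes above the low mode (horizontal axis), both shATAD3A minus shGFP. Points on the dashed line changed as much as their neighbours; TAF1, MED30 and MED26 lie close to it, while MED13 lies at -0.80 over a neighbour median of -0.0098 and MED20 on the opposite side from its neighbours.

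Other genes of polymerase II transcription were read from 5 lists. For comparison, 36.5% of genes above the low mode rose and 25.4% fell, with a median of 0.065. Of 17 general transcription factor genes measured, 6 rose (35.3%) and 2 fell (11.8%), with a median of 0.072. GTF2A2, the small subunit of TFIIA, and ERCC3, a helicase of TFIIH, rose by 0.49 and 0.48, and GTF2H4 of TFIIH changed by -0.36. Of 12 polymerase II subunit genes 5 rose (41.7%) and 2 fell (16.7%), with a median of 0.14. POLR2D rose by 0.68 and the catalytic subunit gene POLR2A by 0.43, while POLR2K changed by -0.31.

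Of 17 SAGA and ATAC genes 8 rose (47.1%) and 2 fell (11.8%), with a median of 0.11. TADA2B rose by 0.63 and SUPT20H by 0.37, and SUPT3H changed by -0.51. Of 11 other TBP partners 4 rose (36.4%) and 1 fell (9.09%). Among them SNAPC1 rose by 0.91, and DRAP1, which forms the NC2 repressor with DR1, changed by -0.72. Of 15 genes of pausing and elongation 3 rose and 2 fell. MLLT3, a reader of acylated histones in the super elongation complex, read 8.68, 8.70 and 8.58 in shATAD3A arrays, against 6.04, 6.34 and 6.77 in shGFP arrays, a rise of 2.27 (limma adjusted p = 0.000194). CCNT1 of the P-TEFb kinase rose by 0.65, and ELL2 changed by -0.48. The 5 lists together held 72 measured genes, 69 of them above the low mode. Of the 72, 26 rose (36.1%, where 36.5% of genes above the low mode did) and 9 fell (12.5%, where 25.4% did), with a median of 0.071.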

How the data were processed

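Expression values of 6 arrays, 3 shATAD3A and 3 shGFP grouped by their titles, were taken from the table deposited by the authors, with 0 columns unmatched. Their range shows that the deposited values are log2 (0.826 to 16.6). Partek, with no version, is the tool per the submitters' processing notes, and the summary and normalization method is not given in the sources used here. Array medians lay between 3.16 and 3.23. Of 54675 probe sets 62 controls were set aside, and the platform annotation gave 1 symbol to 41091, several to 1801 and none to 11721. Entrez IDs looked up in RefSeq (GRCh38.p14) changed 0 symbols.

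The highest-mean probe set stood for each of 19775 genes, with no filter on dim ones. Groups were compared with limma 3.58.1 in R 4.3.3 (lmFit and eBayes, two-sided, no covariates, Benjamini-Hochberg adjustment over all genes, threshold 0.05). Probe sets were fitted the same way over all probe sets. The low mode was bounded at the lowest density between the modes of the gene means, after seeing the data. The fit was tested on simulated data with independent noise and far fewer changed genes than were called here. That setting differs from these data, so it does not vouch for the calls. Members, gene lists and tests were chosen with earlier results of these data known. Genes named were the 4 largest increases and 4 largest decreases per role among changed members without overlap, all paralog pairs, up to 2 of each per other list, and ATAD3A; other members are given by range or value. Precision is limited by the number of arrays. No 2 arrays shared over 0.0165% of their values, so none was counted as a copy.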

Additional observations from a re-analysis of the deposited data

Results flagged for a closer look

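TAF1A-AS1, an antisense RNA gene left out of the subunit set, was higher in shATAD3A arrays (3.22, 3.37 and 3.22) than in shGFP arrays (2.87, 2.83 and 2.83), a change of 0.43 (limma adjusted p = 0.000875) with both groups inside the low mode, where values hold little signal. It is given here because it was higher than in the control arrays and is no member of the set.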

How the results depend on the processing

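Over 17 alternatives, 642 of 683 values of the 41 named members kept their side of the threshold, 32 lost and 3 gained the call, and 6 reversed. The 642 include uncalled values that changed sign. For MED13L the change went from 0.12 to -0.020 with the median of neighbours above the low mode removed. Without s_at and x_at probe sets 9 members rose instead of 15 (46 measured), 23 genes of the other lists changed instead of 35, MED7 lost its call (0.20, adjusted p = 0.125), as did TAF9B (-0.055, adjusted p = 0.699), MED8 changed by -0.12 (adjusted p = 0.052), MED31 by -0.14 (adjusted p = 0.04) and MED12 by 0.00398, the last on a probe set in the low mode. With probe sets averaged, those in the low mode included, MED13L changed by -0.10. Under that setting MED8 (0.034, adjusted p = 0.675), MED20 (0.096, adjusted p = 0.0811) and MED23 (-0.18, adjusted p = 0.0962) lost their calls. So did MED28 (0.050, adjusted p = 0.475), TAF1C (0.17, adjusted p = 0.0752) and TAF3 (-0.13, adjusted p = 0.144). With the median of 25 neighbours on either side removed, TAF7L, in the low mode, changed by 0.41, and by 1.14 with neighbours above the low mode only, a setting added after seeing the data. ATAD3A changed by -0.77 under that setting and kept its call. Leaving out each array in turn gave 29 to 34 changed members, 13 to 15 up and 16 to 19 down, 5845 to 6457 changed genes of all measured, 26 to 32 in the other lists, and a change of ATAD3A of -0.56 to -0.37.

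With the replicate number as a block 30 members changed, 13 upward and 17 downward, and TAF1C (adjusted p = 0.052), MED20 (adjusted p = 0.0527), CDK19 (adjusted p = 0.0564), TAF11 (adjusted p = 0.0835) and TAF13 (adjusted p = 0.0786) lost their calls. Same-numbered arrays did not deviate together (correlations of -0.277, -0.192 and 0.059 across genes), so the numbers were not taken as pairs. Among differently numbered arrays, shATAD3A 2 with shGFP 1 gave 0.28 and shATAD3A 1 with shGFP 2 gave 0.239. The others lay between -0.114 and 0.062. A batch shared under other numbers was not tested. Brightness limits 6 members in the low mode, for which no change could be read.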
